A study of Mus musculus with 4 samples.

Results

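The 54 genes described here encode transcription factors of embryonic patterning and organ formation that belong to families other than Hox and are known as classic targets of the Polycomb system. They were taken by exact gene symbol from the platform annotation of the Affymetrix Mouse Genome 430 2.0 array, which listed 90 of the 45037 tested probe sets with these genes, and all 54 were found among 18193 genes in all. Expression was measured in F9 cells, a mouse embryonal carcinoma line resembling undifferentiated embryonic cells. The shPhf19 group (2 arrays) carried a short hairpin RNA against Phf19 in the lentiviral vector pLKO.1, and the shVector group (2 arrays) carried the vector control. Both groups were infected with lentivirus and selected with puromycin as stable cells. The sources used here do not give the number of hairpins, whether the cells were clones or pools, or whether replicates were infected separately, so the p-values describe only how far these 4 arrays scatter. The comparison asked whether the factors change when Phf19 is knocked down.

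Polycomb repressive complex 2 (PRC2) methylates histone H3 at lysine 27, and Polycomb repressive complex 1 (PRC1) binds this mark and ubiquitinates histone H2A. In pluripotent cells the complexes sit on CpG islands of developmental regulators, many of which also carry an activating mark and are said to be bivalent, that is, silent but able to be switched on. Phf19 is a Polycomb-like protein that associates with PRC2, reads methylated lysine 36 of histone H3 through its Tudor domain and is known to help PRC2 bind its targets in mouse embryonic stem cells.

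RefSeq promoter windows (GRCm38.p6, 250 bases before to 50 after a start) were matched by symbol for 39 of the 54 genes, as 41 windows. All 41 held the dinucleotide CG, which reads the same on both strands, as did 95.4% of the 21263 windows of protein-coding genes. The factors had a median of 25 CG per window (range 6 to 50) and a median GC content of 61.0%, against 13 CG and 56.3% over protein-coding genes. At least 20 CG were present in 23 of the 41 windows (56.1%), against 35.9% of protein-coding windows. The factors' windows thus held more CG by median, with Lhx9 (6 CG) and Pax8 (7 CG) at the poor end. This is a description of the reference sequence and was not measured in F9 cells. The windows of the 3 genes with a window and the largest changes by their brightest probe sets (both windows of Pax6) and of Foxd3, whose probe set gave the strongest signal, are shown 5′ to 3′, with each CG in capitals.
Pax6 upstream chr2:105668646-105668945 (plus strand): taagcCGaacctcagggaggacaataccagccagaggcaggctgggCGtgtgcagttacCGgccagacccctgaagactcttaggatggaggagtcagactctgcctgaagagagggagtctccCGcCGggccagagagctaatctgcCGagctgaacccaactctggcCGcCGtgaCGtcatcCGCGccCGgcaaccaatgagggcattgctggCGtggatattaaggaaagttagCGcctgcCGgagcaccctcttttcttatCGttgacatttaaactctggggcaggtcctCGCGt
Pax6 downstream chr2:105682213-105682512 (plus strand): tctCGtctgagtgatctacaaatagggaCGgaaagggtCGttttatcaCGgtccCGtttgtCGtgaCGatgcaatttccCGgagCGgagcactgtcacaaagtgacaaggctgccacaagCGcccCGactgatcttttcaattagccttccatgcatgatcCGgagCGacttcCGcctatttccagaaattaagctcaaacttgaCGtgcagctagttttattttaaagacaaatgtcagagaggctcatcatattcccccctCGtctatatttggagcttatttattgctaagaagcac
Tbx20 chr9:24774254-24774553 (minus strand): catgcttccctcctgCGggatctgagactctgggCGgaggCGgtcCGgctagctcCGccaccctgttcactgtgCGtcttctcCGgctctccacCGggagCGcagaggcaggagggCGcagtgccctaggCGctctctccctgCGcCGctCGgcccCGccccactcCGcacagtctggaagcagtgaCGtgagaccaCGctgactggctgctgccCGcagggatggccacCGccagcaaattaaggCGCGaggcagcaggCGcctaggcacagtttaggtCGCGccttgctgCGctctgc
Irx2 chr13:72628570-72628869 (plus strand): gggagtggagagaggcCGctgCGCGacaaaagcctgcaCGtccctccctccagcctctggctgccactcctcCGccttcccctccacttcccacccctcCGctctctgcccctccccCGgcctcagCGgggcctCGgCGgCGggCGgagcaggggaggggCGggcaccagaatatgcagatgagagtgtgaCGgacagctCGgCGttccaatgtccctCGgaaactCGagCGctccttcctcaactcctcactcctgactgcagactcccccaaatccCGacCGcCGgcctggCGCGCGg
Foxd3 chr4:99656049-99656348 (plus strand): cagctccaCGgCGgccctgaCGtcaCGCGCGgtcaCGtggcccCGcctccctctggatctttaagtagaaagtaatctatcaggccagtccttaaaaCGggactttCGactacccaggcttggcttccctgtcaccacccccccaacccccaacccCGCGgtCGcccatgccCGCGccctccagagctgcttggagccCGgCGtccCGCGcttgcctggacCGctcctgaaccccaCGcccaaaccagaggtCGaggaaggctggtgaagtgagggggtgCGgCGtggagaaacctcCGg
The upstream Pax6 window held 18 CG and the downstream one 16, the Tbx20 window 26, and those of Irx2 and Foxd3 25 each.

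**Figure D1:**
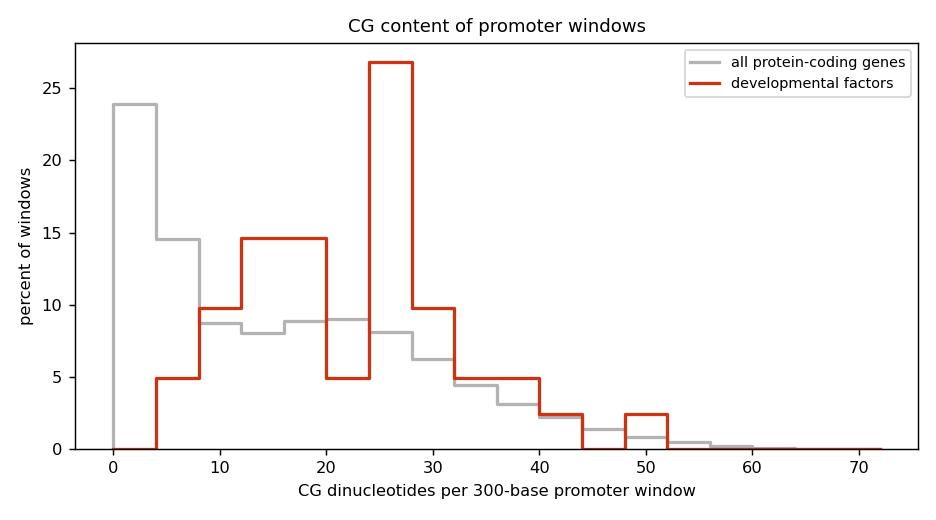
Percent of promoter windows (vertical axis) by the number of CG dinucleotides in 300 bases (horizontal axis, bins of 4) for 41 windows of the developmental factors and 21263 windows of protein-coding genes. The factors have a median of 25 CG per window and the protein-coding genes 13.

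The targeted gene was checked first. Phf19 probe set 1427920_at read 6.07 and 6.14 on the 2 shVector arrays and 5.08 and 5.17 on the 2 shPhf19 arrays (log2 expression), a change of -0.98 ± 0.10 (SE; limma adjusted p = 0.0108). Its other probe set, 1431857_at, read 6.32 and 6.11 against 6.05 and 6.26 and did not pass (-0.06 ± 0.12, limma adjusted p = 0.928). This is the brighter of the 2, so by the rule used for the factors it would stand for Phf19. The fall of Phf19 thus rests on the dimmer probe set. All 10 markers of pluripotent cells lay between 10.4 and 14.3 and none passed. Of 14 markers of differentiated endoderm 4 rose, namely Lamb1, Col4a1, Dab2 and Gata6, and none fell. The list did not move as one, with 8 changes above 0 and 6 below (median 0.28). The groups did not overlap for 11 of the 14 (78.6%), 8 higher and 3 lower, against 43.5% of all genes. Gata4 (0.38), Foxa2 (0.30), Lama1 (0.30) and Sox17 (0.27) read higher without overlap but did not pass. Sox7 (-0.24), Afp (-0.17) and Sparc (-0.12) read lower without overlap and did not pass either. The mean level of that list was 6.68 and 6.70 in shVector and 7.03 and 7.06 in shPhf19. Of 10 neuron markers Tubb3 (-0.54) and Stmn2 (-0.34) fell and none rose. Without overlap 4 of the 10 read lower and 3 higher, against 43.5% of all genes in either direction. The 3 higher were Nefm (0.54), Nefl (0.51) and Elavl3 (0.47), which did not pass. The list means were 6.91 and 6.89 against 6.90 and 6.91. None of 10 fibroblast markers passed, with 2 changes above 0 and 8 below (median -0.16). Of these markers 4 read lower and 1 higher without overlap (50%, against 43.5% of all genes). The largest differences were those of Pdgfrb (-0.68) and Thy1 (0.46). Of all genes, 1.15% rose and 0.863% fell. The part of such cells in the values of the factors was not tested. In bulk RNA, a change in the number of cells of a type and in RNA per cell cannot be told apart.

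No factor passed the test. Of the 54 genes, read by the brightest probe set of each, 0 were called higher and 0 lower by limma at an adjusted p of 0.05, against 1.15% of all genes called higher and 0.863% called lower. Over the 90 probe sets the count was also 0, against 1.41% of all probe sets, so that a count of 0 is near the background. An unadjusted p under 0.05 was reached by 7 of the 54 genes (13%), against 15.1% of all genes, and by 11 of the 90 probe sets (12.2%), against 12.7% of all probe sets. The 2 shPhf19 arrays lay wholly above or below the 2 shVector arrays for 25 of the 54 genes (46.3%), 13 above and 12 below, against 43.5% of all genes. The median change of the factors was 0.03 on the log2 scale, with 30 genes above and 24 below 0, and that of all genes was 0.00.

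Intervals of the change were narrow for most factors, but most factors also gave signals at or below the background level described further on. The 95% interval of the change lay within a 2-fold change in either direction for 51 of the 54 genes (94.4%, against 98.8% of all genes) and within 0.5 on the log2 scale for 46 (85.2%, against 86.9%). The 3 genes whose intervals reached past 2-fold were Pax6, Tbx20 and Wt1. These intervals concern the probe set signal, which understates changes of transcripts near background.

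**Figure D2:**
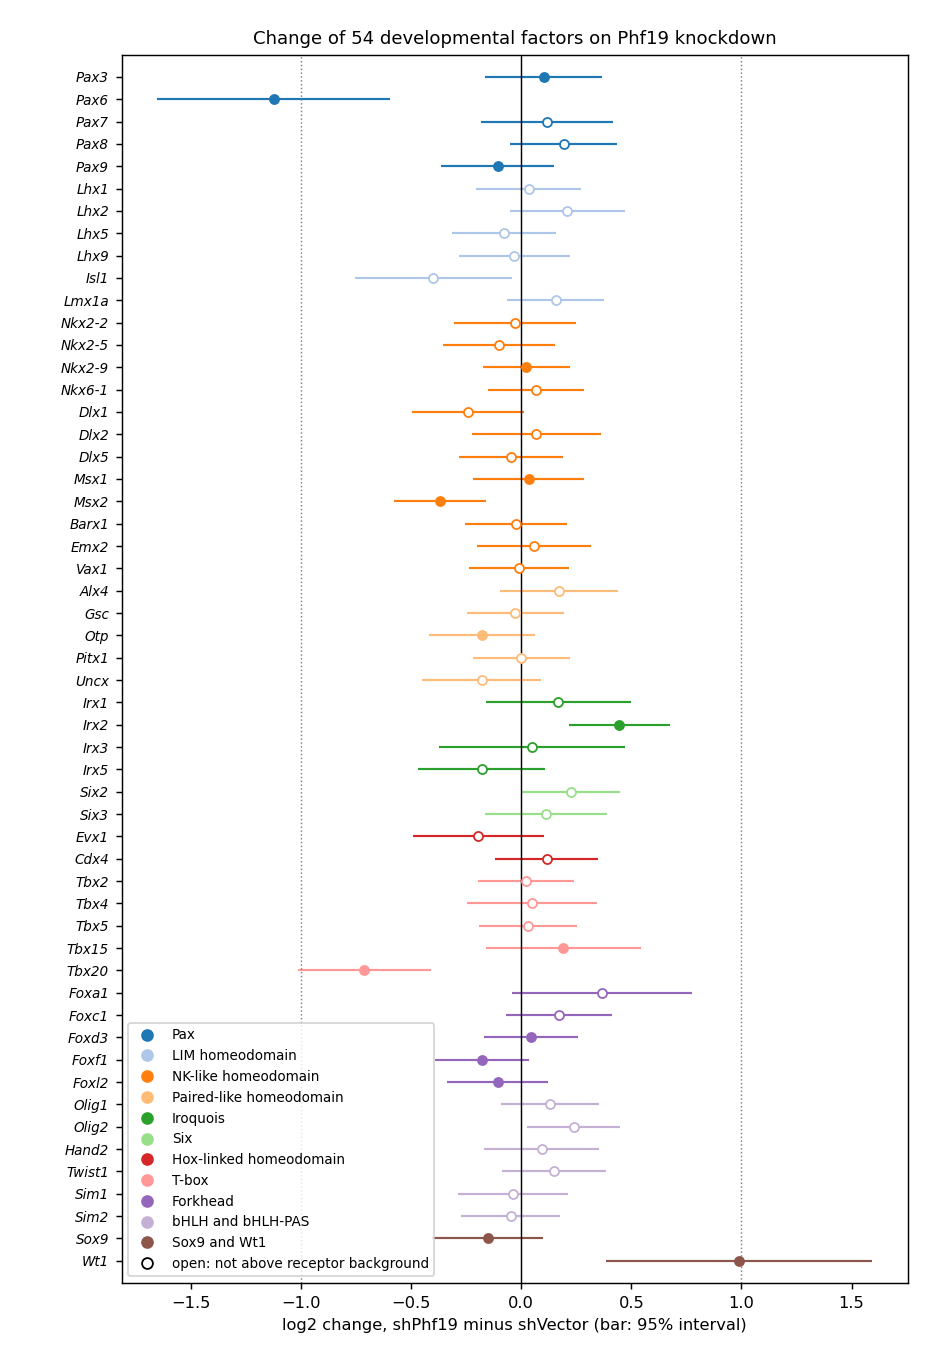
Log2 change (shPhf19 minus shVector, horizontal axis) of the brightest probe set of each of the 54 factors, coloured by family, with bars for limma's 95% interval and dotted lines at a 2-fold change. Pax6, Tbx20 and Wt1 have intervals that reach past 2-fold, and 51 genes do not; open circles are genes not above the receptor background.

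Most of the factors lay at or below a background level set from genes that these cells should lack. The deposited table has no detection calls, so the 95th percentile of 80 probe sets for olfactory, vomeronasal and taste receptors, 5.59 on the log2 scale, was taken as a background level. A group mean above it was found for 15 of the 54 factors (27.8%), against 64.4% of all genes, 47 of 95 relatives from the same families (49.5%) and 9 of 33 Hox genes (27.3%). The 15 were Pax3, Pax6, Pax9, Nkx2-9, Msx1, Msx2, Otp, Irx2, Tbx15, Tbx20, Foxd3, Foxf1, Foxl2, Sox9 and Wt1. The 95% interval lay within a 2-fold change for 12 of the 15 (80%), and for all 39 others. An unadjusted limma p under 0.05 was reached by 5 of the 15 (33.3%) and 2 of the 39 (5.13%), against 15.1% of all genes. The groups did not overlap for 9 of the 15 (60%) and 16 of the 39 (41.0%), against 43.5% of all genes. Of the 9, 2 read higher and 7 lower, and of the 16, 11 read higher and 5 lower. The median change was -0.11 for the 15 and 0.05 for the 39. Each factor was counted by its higher group mean, which favours genes that differ. Wt1 (group means 5.19 in shVector and 6.18 in shPhf19) and Pax3 (5.56 and 5.67) passed only through shPhf19. The shares over all genes were taken without this filter, so the shares of the 15 and the 39 cannot be compared with them like for like. The number depends on the level chosen: 26 factors exceeded the 90th percentile of the receptors and 6 the 99th. The median level was 5.02 for the brightest probe sets of the factors and 4.43 over all 90 of their probe sets, against 3.72 for the receptor probe sets, so the factors were not as dim as the receptors by median. Probe sets differ in how well they hybridise, so these signals do not rank the genes by transcript number.

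**Figure D3:**
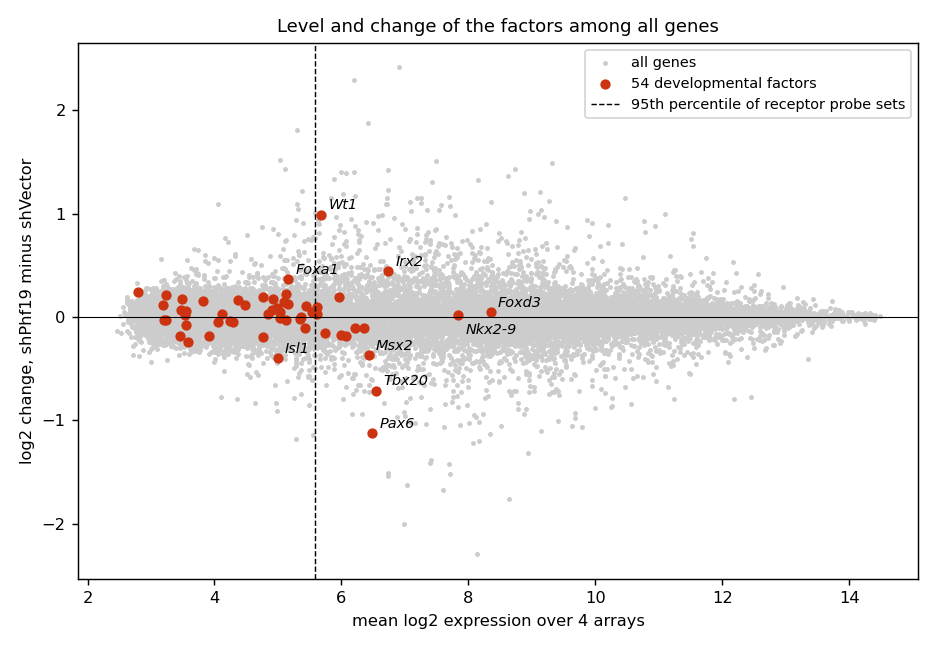
Log2 change (vertical axis) against mean log2 expression over the 4 arrays (horizontal axis) for the brightest probe set of each gene, with all 18193 genes in grey and the 54 factors in red. Of the factors, 39 lie at or below the dashed receptor background of 5.59 in both groups; Pax6, Tbx20 and Wt1 stand farthest from 0.

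Among the Pax genes, which encode paired-box factors of eye, brain, neural crest, muscle, thyroid and skeleton, Pax6 differed most. Pax6, a master regulator of eye and forebrain development, read 6.77 and 7.33 on the shVector arrays and 6.16 and 5.69 on the shPhf19 arrays with probe set 1419271_at. Both shPhf19 arrays lay below both shVector arrays, and the arrays of each group lay wide apart. The change of -1.12 ± 0.22 (SE; limma adjusted p = 0.0805) left 45.9% of the control signal (95% interval 31.8% to 66.1%) and did not pass. It passed after quantile normalization (adjusted p = 0.0430) and in a fit with crossed replicate numbers as a block (adjusted p = 0.0243). The crossed fit was added once the data had been seen. Over the alternatives that kept all 4 arrays the highest limma adjusted p was 0.430, with the replicate number as a block. The other 4 Pax6 probe sets all read below 0 as well but closer to it, at -0.03, -0.17, -0.40 and -0.18. The nearly as bright 1456342_at, at 6.32 and 6.47 against 6.43 and 6.30, overlapped between the groups. Which transcripts each Pax6 probe set covers was not analysed here.

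None of the other Pax genes passed. Pax9, a factor of teeth, thymus and vertebral column, read 6.32 and 6.49 against 6.23 and 6.37 (change -0.11 ± 0.11). Pax3, a regulator of neural crest and limb muscle, read 5.55 and 5.57 against 5.55 and 5.78 (0.10 ± 0.11), and its 3 probe sets differed in sign. Pax8, which specifies thyroid and kidney, and Pax7, a factor of muscle stem cells, lay under the background level at 0.19 ± 0.10 and 0.12 ± 0.12.

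The T-box family held the smallest p among the factors. Tbx20, a regulator of heart development, read 6.75 and 7.05 in shVector and 6.12 and 6.26 in shPhf19 with probe set 1453351_at. The groups did not overlap, and the change of -0.71 ± 0.12 (limma adjusted p = 0.0584) corresponded to 61.1% of the control signal (95% interval 49.6% to 75.2%). The second probe set, 1425158_at, read 4.85 and 4.94 against 4.64 and 4.40 (-0.38 ± 0.12), again without overlap, and the third, 1422219_a_at, differed by -0.11 ± 0.12 with overlapping arrays. All 3 probe sets thus read lower in shPhf19, although both others were under the background level. The call for 1453351_at missed the threshold narrowly. It was made when the dimmest probe sets were left out (adjusted p = 0.0457 without the lowest 25% and 0.0383 without the lowest 50%) and after quantile normalization (0.0341). Over the alternatives that kept all 4 arrays its highest limma adjusted p was 0.271, with the replicate number as a block.

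None of the remaining T-box genes passed. Tbx15, a factor of skin and skeleton, read 6.04 and 5.69 against 6.17 and 5.94 (0.19 ± 0.15), and ran from 0.014 to 0.37 when 1 array was left out. Its dimmer probe set 1422195_s_at read 4.05 and 3.88 against 4.29 and 4.22, without overlap (0.29 ± 0.10, limma adjusted p = 0.301). Tbx2, Tbx4 and Tbx5, regulators of heart and limb, had changes of 0.02 ± 0.09, 0.05 ± 0.12 and 0.03 ± 0.09, all under the background level.

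Wt1, the Wilms tumour zinc finger gene needed for kidney and gonad formation, had the largest positive difference. Its only probe set, 1425995_s_at, read 4.77 and 5.61 in shVector and 6.24 and 6.12 in shPhf19. Both shPhf19 arrays were above both shVector arrays and above the background level, which shVector replicate 1 missed by far and shVector replicate 2 just exceeded. The 1.99-fold difference (log2 change 0.99 ± 0.25, 95% interval 0.39 to 1.59) did not pass (limma adjusted p = 0.157), and the shVector SD of 0.59 was the highest among the factors. Without shVector replicate 1 the change was 0.57, and without shVector replicate 2 it was 1.41. The suffix of this probe set marks probes that can match related transcripts. Sox9, a factor of cartilage and testis described with Wt1 only because neither has a relative among the 54, read 5.92 and 5.72 against 5.64 and 5.69 (-0.15 ± 0.10).

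**Figure D4:**
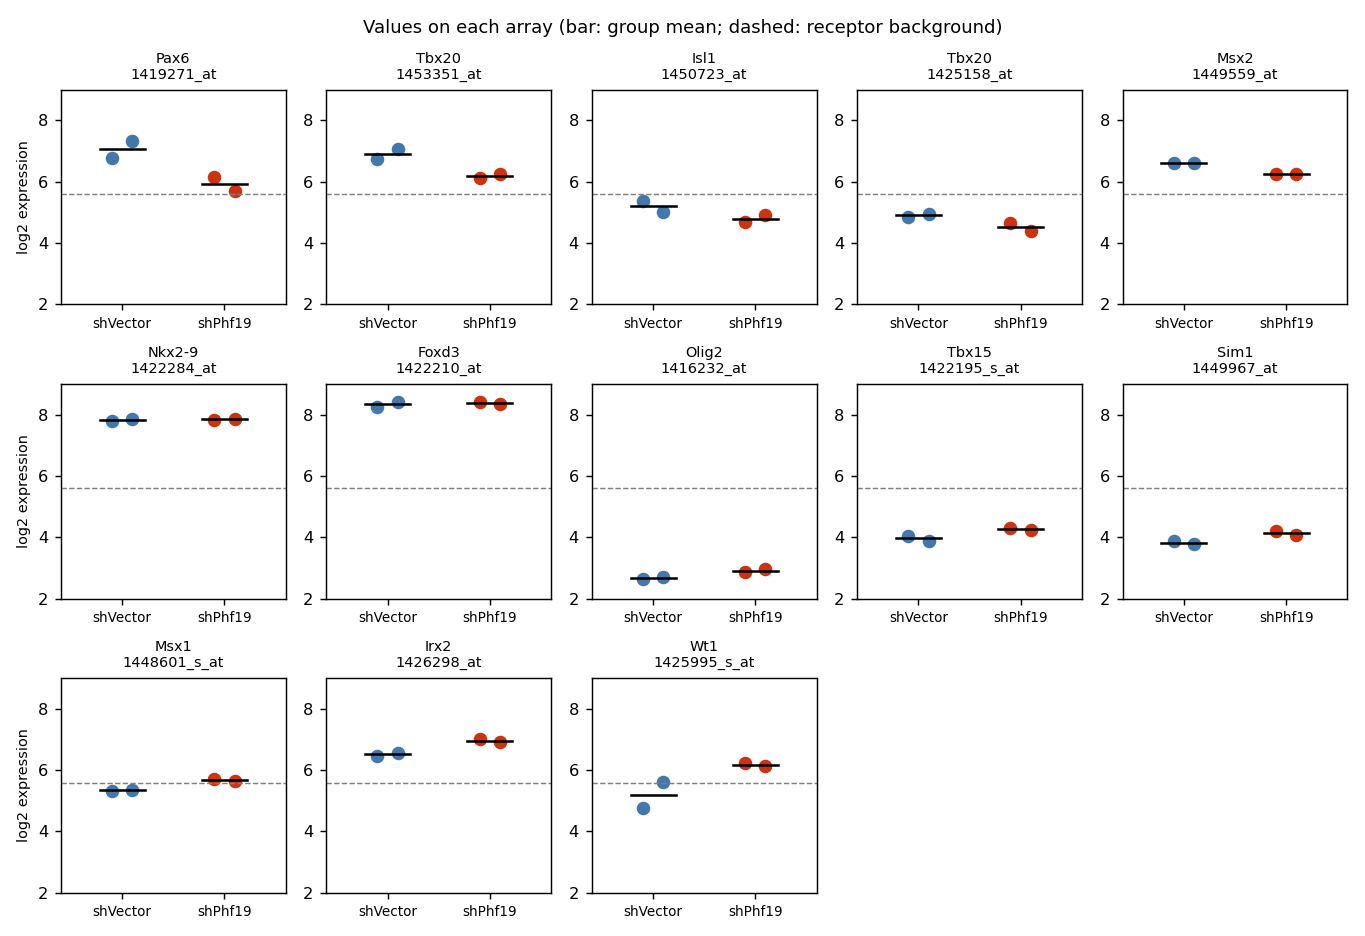
Log2 expression on each array (points; bars are group means, the dashed line is the receptor background) for the 11 probe sets with an unadjusted p under 0.05, and for Foxd3 and Nkx2-9. Of the 11, 5 read lower on both shPhf19 arrays (Pax6, 2 of Tbx20, Msx2 and Isl1). The 6 that read higher are of Wt1, Irx2, Olig2, Msx1 (1448601_s_at), Tbx15 (1422195_s_at) and Sim1 (1449967_at). Foxd3 and Nkx2-9 overlap.

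Of the Iroquois genes, which pattern neural tube, heart and limb, Irx2 was the only gene of the 4 above background. It read 6.45 and 6.57 in shVector and 7.00 and 6.91 in shPhf19, with no overlap and with both groups above background. The change was 0.45 ± 0.10, or 1.36-fold (95% interval of the log2 change 0.22 to 0.68), and did not pass (limma adjusted p = 0.105). Irx2 has only 1 probe set, so the fit on the mean of all probe sets of each gene left its change the same. It passed in that fit with a smaller SE of 0.08 (limma adjusted p = 0.0388). Over the other alternatives that kept all 4 arrays the limma adjusted p ran from 0.0610 to 0.447. Its chromosomal neighbour Irx1 read 4.45 and 4.14 against 4.57 and 4.36 (0.17 ± 0.14). Irx3 and Irx5, neighbours on another chromosome, stood at 0.05 ± 0.18 and -0.18 ± 0.12, and all of Irx1, Irx3 and Irx5 were under the background level.

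Among the NK-like homeobox genes Msx2 differed most. Msx2, an effector of BMP signalling in skull and limb, read 6.62 and 6.62 in shVector and 6.26 and 6.23 in shPhf19. Replicates were nearly identical in each group, yet the change of -0.37 ± 0.09 did not pass (limma adjusted p = 0.132). The second Msx2 probe set, under the background level, was at -0.01 ± 0.11. Its paralog Msx1, which acts in the same tissues, read 5.57 and 5.63 against 5.72 and 5.54 with the brightest probe set (0.03 ± 0.10) and 5.33 and 5.36 against 5.71 and 5.65 with 1448601_s_at (0.33 ± 0.09, adjusted p = 0.189). The Msx1 probe sets therefore differed in whether the groups overlapped.

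Nkx2-9, a factor of the ventral neural tube, gave a clear signal in both groups, at 7.79 and 7.86 in shVector and 7.83 and 7.87 in shPhf19. Its change of 0.02 ± 0.08 had a 95% interval from -0.17 to 0.22, so a change of 1.5-fold lay outside it. The other NK-like genes were under the background level: Nkx2-2 (-0.03), Nkx2-5 (-0.10) and Nkx6-1 (0.07), which specify ventral neurons, heart and pancreas, Dlx1 (-0.24), Dlx2 (0.07) and Dlx5 (-0.05) of forebrain and jaw, Barx1 (-0.02) of stomach, Emx2 (0.06) of cortex and urogenital tract, and Vax1 (-0.01) of the optic stalk. Dlx1 was the only one of these 9 with a change of 0.2 or more from 0, and its unadjusted p was 0.0579.

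The forkhead genes included the probe set with the strongest signal of the factors. Foxd3, a factor of pluripotent cells and neural crest, read 8.26 and 8.40 in shVector and 8.42 and 8.33 in shPhf19. The arrays overlapped, and the change of 0.05 ± 0.09 had a 95% interval from -0.17 to 0.26. Foxf1, a factor of lung and gut mesenchyme, read 6.16 and 6.18 against 5.98 and 6.0 (-0.18 ± 0.09), with no overlap but without passing (limma adjusted p = 0.490). Foxl2, a factor of the ovary, was at -0.11 ± 0.10. Foxa1, a pioneer factor of endoderm, read 4.98 and 4.98 against 5.61 and 5.09, so that its change of 0.37 ± 0.17 rested mainly on shPhf19 replicate 1 and was 0.11 without it. Foxc1, which acts in eye and heart, was at 0.17 ± 0.10.

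Of the LIM-homeodomain genes, which specify neuron classes, heart and gonad, none exceeded the background level. Isl1, a marker of motor neurons and cardiac progenitors, read 5.38 and 5.01 in shVector and 4.70 and 4.90 in shPhf19 (-0.40 ± 0.15, limma adjusted p = 0.335). Its groups did not overlap, but the second Isl1 probe set was at 0.02 ± 0.12 with overlap. Without shVector replicate 1 the first Isl1 probe set was at -0.21. Lhx1, Lhx2, Lhx5, Lhx9 and Lmx1a had changes of 0.03, 0.21, -0.08, -0.03 and 0.16.

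The paired-like genes, Six2, Six3, Evx1 and Cdx4 showed differences of at most 0.22 in size. Otp, a factor of hypothalamic neurons and the only one of these above background, read 6.01 and 6.17 against 5.93 and 5.89 (-0.18 ± 0.10), while its second probe set was at 0.09 ± 0.10. Alx4 (0.17), Gsc (-0.03), Pitx1 (0.00) and Uncx (-0.18), which pattern skull, organizer, hindlimb and vertebrae, did not pass. Six2, which maintains nephron progenitors, read 4.96 and 5.05 against 5.23 and 5.23 (0.22 ± 0.09), and its neighbour Six3, a forebrain and eye factor, was at 0.11 ± 0.12. Evx1, which lies beside the Hoxa cluster and acts in the primitive streak, was at -0.19 ± 0.12, which became -0.35 without shVector replicate 1 and -0.042 without shVector replicate 2. Cdx4, an activator of Hox genes, was at 0.12 ± 0.10.

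The bHLH genes were all under the background level, including the PAS-domain factors Sim1 and Sim2. Olig2, a factor of motor neurons and oligodendrocytes, read 2.65 and 2.69 against 2.87 and 2.96 (0.24 ± 0.09, limma adjusted p = 0.326), the lowest signals among the brightest probe sets of the factors. A difference so far down the scale has no detection call behind it. Its neighbour Olig1 was at 0.13 ± 0.09, Hand2 of heart and limb at 0.09 ± 0.11, and Twist1 of mesenchyme at 0.15 ± 0.10. For Sim1, a hypothalamic factor, the brightest probe set was at -0.04 ± 0.10 and the dimmer 1449967_at, at 3.87 and 3.79 against 4.19 and 4.07, was at 0.31 ± 0.10. Sim2 was at -0.05 ± 0.09.

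Probe sets of the same factor often differed. More than 1 probe set was present for 25 of the 54 genes, of which 14 had all changes on the same side of 0 and 11 did not. Pax6 and Tbx20 were the only ones whose probe sets differed by 0.5 or more, and in both the brightest probe set had the largest change. For Isl1 and Msx2 likewise the dimmer probe set was closer to 0, and for Msx1, Sim1 and Tbx15 the dimmer probe set was farther from it.

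**Figure D5:**
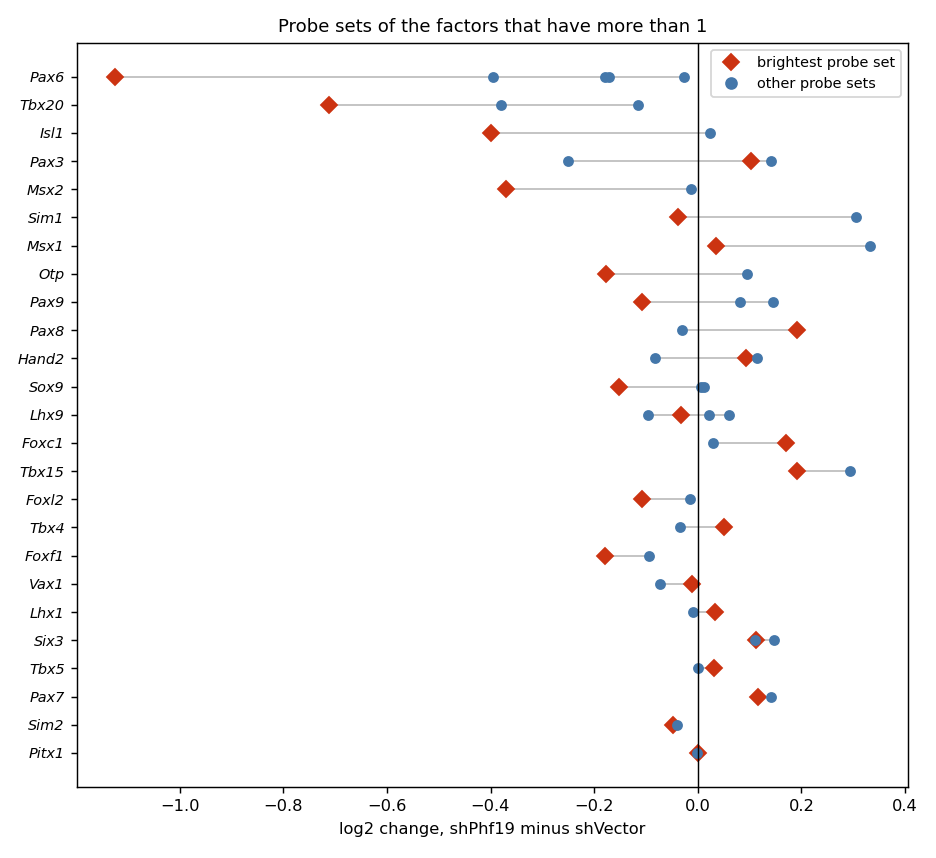
Log2 change (shPhf19 minus shVector, horizontal axis) of every probe set of the 25 factors that have more than 1, with the brightest as a red diamond and the others as blue circles. The 5 Pax6 probe sets run from -1.12 to -0.03 and the 3 of Tbx20 from -0.71 to -0.11.

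Factors that are chromosomal neighbours were read in pairs, since Polycomb domains can span adjacent genes. The RefSeq table gave 7 pairs with no other protein-coding gene between them. Both genes were above 0 in 4 pairs (Irx1 and Irx2, Six3 and Six2, Olig2 and Olig1, Tbx2 and Tbx4) and the signs differed in 3 (Dlx1 and Dlx2, Irx3 and Irx5, Nkx2-9 and Pax9). No gene of these pairs passed, and in the 4 pairs with both genes above 0 only Irx2 lay above the background level. Whether neighbours change together was not tested.

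Among 95 genes of the same families that are not among the 54, 3 rose and 1 fell, against 1.15% and 0.863% of all genes, and their median change was -0.01. Sox11 read 8.68 and 8.73 against 9.68 and 9.66 (log2 change 0.97 ± 0.07, limma adjusted p = 0.00693) and Sox4 10.3 and 10.3 against 11.4 and 11.1 (0.93 ± 0.09, adjusted p = 0.0100), both of the SoxC group that acts in neuronal and mesenchymal progenitors. Sox1 was the other rise (1.11 ± 0.08). Nkx6-3, a factor of the stomach, read 7.65 and 7.70 against 6.82 and 6.48 (-1.02 ± 0.13, adjusted p = 0.0207). All 4 exceeded the background level in both groups. Whether the relatives and the 54 factors differ was not tested. Of the 33 Hox genes 1 rose, Hoxd9.

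All 11 other PRC2 genes exceeded the background level and none passed, with a median change of 0.01. Of 18 PRC1 genes measured of 20 listed, Kdm2b rose and none fell, with a median of 0.07, against 1.15% of all genes called higher and 0.863% called lower. Leaving out any 1 array left 0 probe sets called by limma in the whole table, so the absence of calls among the factors in those fits says nothing about them.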

How the data were processed

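RNA of 2 shVector and 2 shPhf19 samples was labelled with biotin and hybridised to Affymetrix Mouse Genome 430 2.0 arrays, per the labels. The deposited values, 1 for each probe set and array, were read here as log2 expression from their range of 2.31 to 14.5 over the tested probe sets. The array medians were near equal (5.75 to 5.76); how the authors summarized and normalized the arrays is not stated in the labels. From 45101 probe sets, 64 controls were left out and 45037 tested without a filter. The platform annotation gave 34945 of them 1 gene symbol, 932 several and 9160 none; all 54 symbols were found in RefSeq (GRCm38.p6). The probe set with the highest mean stood for each gene.

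The shPhf19 minus shVector difference was tested two-sided using limma 3.58.1 under R 4.3.3 (lmFit, eBayes with an intensity trend), adjusting p by Benjamini and Hochberg across every tested probe set, with 0.05 as threshold. The fit has 2 residual degrees of freedom (median 6.51 after moderation), and the number of arrays limits the precision. No label says that a replicate number marks a shared day, so no replicate term was used. Deviations of same-numbered arrays had a correlation of -0.197 across probe sets. With 2 arrays per group this means an equal positive correlation for opposite-numbered arrays. Genes, lists and the receptor background were chosen with earlier results of these data known. Named are Phf19, factors with any probe set at an unadjusted p under 0.05, the smallest p of each family, those above background and those whose probe sets differ by 0.5 or more, and called relatives and Hox genes; all other factors are given by their change, although outside that rule.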

Additional observations from a re-analysis of the deposited data

How the results depend on the processing

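The number of factors called was 0 by limma with 7 genes and 11 probe sets at an unadjusted p under 0.05, and it stayed 0 without an intensity trend, with a robust variance, with median centring and when probe sets with _s_at, _x_at or _a_at names were left out, which leaves 52 of the 54 genes. It was 1 (Tbx20) without the lowest 25% and without the lowest 50% of probe sets, and 2 (Tbx20 and Pax6) after quantile normalization. With the mean of probe sets it was 1 (Irx2, which has only 1 probe set). It was also 1 (Pax6) with a replicate block of crossed numbers, added after seeing the data. By probe sets the counts were also 1, 1, 2 and 1 in the fits other than the mean. Leaving out the lowest 25% of probe sets left 38 of the factors and leaving out the lowest 50% left 11, with a median change of -0.11. Over all probe sets the count of 636 became 380 without an intensity trend and 0 with the replicate block (3890 at an unadjusted p under 0.05), which called no factor. Without any 1 array (shVector replicate 1 or 2, shPhf19 replicate 1 or 2) it was 0 to 0, with 2539 to 6942 at an unadjusted p under 0.05; each such fit assumes that the lone array varies like the other group. The factor counts were then 0 to 0 and their median change 0.00 to 0.03. The number above background was 15, 26 at the 90th and 6 at the 99th receptor percentile. Of 27 probe sets followed, those near 0 changed sign without 1 array: Msx1 1417127_at ran from -0.058 to 0.13, Pax3 1420389_at from -0.015 to 0.22, Sim1 1420736_at from -0.11 to 0.037, Nkx2-9 1422284_at from -0.013 to 0.060, Foxd3 1422210_at from -0.028 to 0.12 and Phf19 1431857_at from -0.16 to 0.052. Without 1 array, changes that moved by over 1.5 times without changing sign were those of Wt1 (0.57 to 1.41), Foxa1 (0.11 to 0.63), Tbx15 1418755_at (0.014 to 0.37), Isl1 1450723_at (-0.59 to -0.21), Evx1 (-0.35 to -0.042), Otp 1422285_at (-0.26 to -0.098), Sox9 (-0.25 to -0.055), Pax9 (-0.19 to -0.025) and Foxl2 (-0.17 to -0.044). The call of Phf19 1427920_at was lost with the replicate block (adjusted p = 0.203) and without any 1 array (0.114 to 0.692). The causes of these differences were not tested. The filtered fits held fewer probe sets and the reduced fits fewer arrays.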

Other observations

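Pax6 and Wt1, the factors with the largest changes in either direction, lie close to each other on chromosome 2, in the segment whose human counterpart is deleted in WAGR syndrome (Wilms tumour, aniridia, genitourinary anomalies and developmental delay). This was noticed after their values were seen. The RefSeq table used here places 2 protein-coding genes between them, and both were measured. Rcn1, which encodes a calcium-binding protein of the endoplasmic reticulum, read 11.1 and 11.2 in shVector and 11.0 and 10.9 in shPhf19 (log2 change -0.17 ± 0.06, limma adjusted p = 0.300). Them7 read 4.08 and 4.43 against 4.24 and 4.22, overlapping between the groups (-0.02 ± 0.13). Neither passed, and neither did Pax6 or Wt1.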
